A study of Homo sapiens with 8 samples.

Results

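The 10 genes described here encode enzymes between glucose 6-phosphate and pyruvate: GPI, ALDOA, ALDOC, TPI1, GAPDH, PGK1, PGAM1, ENO1, ENO2 and PKM. The phosphofructokinases of that path are not among them. The 10 genes were chosen by symbol from the 23193 genes of the gene body and TSS count tables, and all 10 are in both tables. Transcription was read by PRO-seq, in which engaged polymerases add a labelled nucleotide in isolated nuclei, so that reads count polymerases at work on a gene and not accumulated mRNA. The cells were HCT116, an established colorectal carcinoma line, and a HIF1A-/- derivative, a single line in which HIF1A was disrupted by homologous recombination. WT and HIF1A-/- cells were kept in normoxia or in hypoxia, which was 1% O2 for 90 min, and all of them received the vehicle DMSO. Each of the 4 groups (WT normoxia, WT hypoxia, HIF1A-/- normoxia and HIF1A-/- hypoxia) had 2 libraries from separate cultures, with the plates of one culture pooled.

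Glycolysis splits glucose into pyruvate in the cytosol and yields ATP without oxygen. GPI turns glucose 6-phosphate into fructose 6-phosphate, an aldolase (ALDOA or ALDOC) cleaves fructose bisphosphate into triose phosphates, and TPI1 interconverts those trioses. GAPDH and PGK1 then make NADH and ATP, and PGAM1 rearranges phosphoglycerate. An enolase (ENO1 or ENO2) removes water from it, and PKM makes pyruvate and more ATP. HIF1A is the oxygen-regulated subunit of the transcription factor HIF1, which accumulates at low oxygen and is known for activating genes of this pathway through the core DNA motif ACGTG or GCGTG.

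The libraries held between 18125234 and 23622392 gene body reads and between 2783581 and 5966348 TSS reads. The 10 genes took 0.118% and 0.131% of gene body reads in the WT normoxia libraries and 0.309% and 0.367% after hypoxia. HIF1A-/- cells gave shares from 0.111% to 0.136%. In TSS reads, the share ran from 0.142% to 0.190% over the 8 libraries. Of 7 colorectal epithelial markers, EPCAM, KRT8, KRT18, CDH1 and CDX2 were present in every library, KRT20 ran from 0.106 to 10.0 CPM (the count scaled to a common library size) and VIL1 stayed at or under 0.622 CPM. The summed level of the 7 ran from 602 to 633 CPM (normoxia) and 624 to 729 (hypoxia) in WT cells, and from 666 to 690 and 718 to 779 in HIF1A-/- cells. Of 6 markers of other cell types, 5 stayed under 0.5 CPM, and the neuronal gene RBFOX3 ran from 3.49 to 9.48 CPM. The targeted gene HIF1A gave 130 to 175 CPM across all 8 libraries and did not pass the test between the lines in normoxia (log2 difference 0.07, SE 0.16, edgeR adjusted p = 0.991). Gene body reads over an allele that is still transcribed do not check its loss.

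The 10 genes lie on 8 chromosomes, and the TSS table gives each a single start site (GRCh37). GPI (chromosome 19, start site 34856024) and ALDOA (chromosome 16, 30076993) lie on the forward strand, and ALDOC (chromosome 17, 26903951) on the reverse strand. TPI1, GAPDH and ENO2 all lie on chromosome 12, forward strand, with start sites at 6976692, 6643824 and 7023613. PGK1 (chromosome X, 77359665) and PGAM1 (chromosome 10, 99187433) are on the forward strand, and ENO1 (chromosome 1, 8939151) and PKM (chromosome 15, 72523965) on the reverse. Gene bodies, counted from 1001 bp past the start, ran from 2418 bp in TPI1 to 36294 bp in GPI, and their exonic share in the annotation ran from 11.6% in PGK1 to 77.7% in ALDOA. Start sites of the TSS table were set against those of the MANE Select transcript, the reference transcript of each gene. That start lies inside the 551 bp TSS region for 8 of the 10 genes. For PGAM1 it lies 1485 bp upstream of the table's start site, and for GAPDH 141 bp upstream, so the TSS counts of both come from downstream of it. Named pseudogene copies are many for GAPDH (65) and PGAM1 (13), there are 5 for PKM, 4 each for TPI1 and ENO1 and 2 each for ALDOA and PGK1, and reads shared with such a copy leave the counts of these genes uncertain. The gene body of TPI1 overlaps SPSB2 on the opposite strand. The libraries were strand-specific per the labels, but whether counting used strand is not given in the sources used here.

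The windows from 250 bases before to 49 bases after the 10 start sites were read for the HIF core motif in the reference genome. They held 5 matches in ENO1, 4 each in ALDOC and PGK1, 1 each in ALDOA, GAPDH, ENO2 and PKM, and none in GPI, TPI1 and PGAM1. The 3 windows with the most matches are printed first, followed by those of GPI and TPI1, which had no match and showed the largest and the smallest gene body difference in WT hypoxia. Sequences are from GRCh37, written 5′ to 3′ on the strand of the gene, and capitals mark ACGTG or GCGTG, or CACGT or CACGC where the match is on the other strand.
ENO1 (chr1:8939102-8939401, reverse strand): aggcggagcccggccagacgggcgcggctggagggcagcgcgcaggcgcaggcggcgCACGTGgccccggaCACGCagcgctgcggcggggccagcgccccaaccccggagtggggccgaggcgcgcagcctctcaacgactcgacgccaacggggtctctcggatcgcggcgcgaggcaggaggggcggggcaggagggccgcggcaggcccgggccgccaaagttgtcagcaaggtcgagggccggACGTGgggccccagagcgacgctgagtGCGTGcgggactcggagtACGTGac
ALDOC (chr17:26903902-26904201, reverse strand): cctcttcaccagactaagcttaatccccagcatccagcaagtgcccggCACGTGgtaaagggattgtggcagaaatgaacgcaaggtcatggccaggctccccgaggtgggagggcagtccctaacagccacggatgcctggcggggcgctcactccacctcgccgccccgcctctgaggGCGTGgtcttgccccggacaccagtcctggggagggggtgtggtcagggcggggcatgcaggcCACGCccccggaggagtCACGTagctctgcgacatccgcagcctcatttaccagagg
PGK1 (chrX:77359415-77359714, forward strand): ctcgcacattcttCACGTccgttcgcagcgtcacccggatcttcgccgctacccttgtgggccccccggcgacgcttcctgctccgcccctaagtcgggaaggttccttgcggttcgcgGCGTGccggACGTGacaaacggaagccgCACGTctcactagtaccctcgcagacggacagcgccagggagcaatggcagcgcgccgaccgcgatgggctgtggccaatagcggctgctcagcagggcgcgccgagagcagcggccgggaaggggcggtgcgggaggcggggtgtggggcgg
GPI (chr19:34855774-34856073, forward strand): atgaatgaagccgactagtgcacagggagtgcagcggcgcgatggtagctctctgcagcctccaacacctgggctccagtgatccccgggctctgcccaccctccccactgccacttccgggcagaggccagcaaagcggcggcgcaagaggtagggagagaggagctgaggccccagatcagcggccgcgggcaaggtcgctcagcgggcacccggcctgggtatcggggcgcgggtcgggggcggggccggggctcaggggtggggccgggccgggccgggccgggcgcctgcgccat
TPI1 (chr12:6976442-6976741, forward strand): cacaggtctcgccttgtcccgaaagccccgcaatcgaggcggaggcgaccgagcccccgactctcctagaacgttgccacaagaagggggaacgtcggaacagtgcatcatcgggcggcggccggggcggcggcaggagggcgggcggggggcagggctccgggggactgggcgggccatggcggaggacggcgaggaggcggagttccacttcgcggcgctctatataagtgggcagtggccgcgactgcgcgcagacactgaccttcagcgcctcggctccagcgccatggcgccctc

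Matches on both strands that overlap were counted as 1, as in CACGTG, which ENO1 held from base -193 and ALDOC from base -202 (the start site is base 0) and which is also the E-box of other factors. In PGK1, 3 of the 4 matches lay between bases -131 and -99. A match was found for 7 of the 10 genes (70%), against 53.0% of the start sites of all 23193 genes, and 4 or more matches for 3 of 10, against 3.03% of all. The ACGTG form was in 6 of the 10 windows, against 22.5% of all. Among the 16686 genes tested in gene bodies, 58.2% had a match, 3.63% had 4 or more and 24.3% had the ACGTG form. Median GC content was 70.2% in the 10 windows, against 60% for all start sites and 63% for the tested genes. Whether base composition accounts for the matches was not tested. The start sites of ENO1 and PKM in the table lie 406 and 434 bp upstream of the MANE Select start. In windows of the same size around the MANE Select starts 9 of the 10 genes held a match, against 56.9% of 18922 such starts. There GPI held 1, PGAM1 2, GAPDH 3 and ENO1 2 matches, and TPI1 still none. These letters are a description of the window and not evidence of binding.

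**Figure D1:**
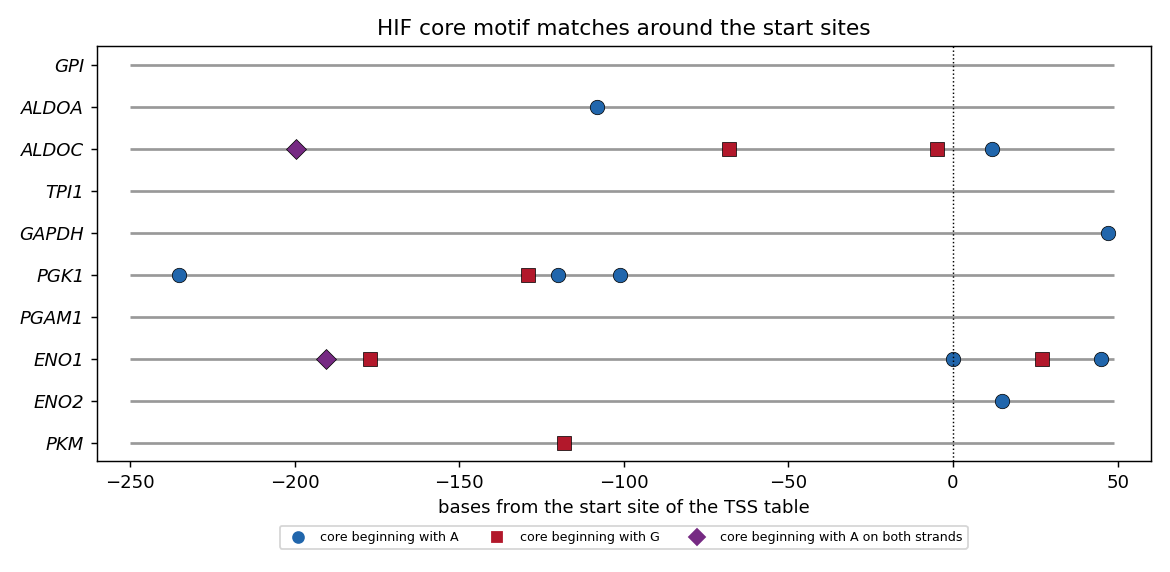
Matches to the HIF core motif around the start sites of the 10 genes. The horizontal axis gives bases from the start site in the TSS table, each row is the window of one gene, and symbols separate matches beginning with A, matches beginning with G and matches on both strands. ENO1, ALDOC and PGK1 hold 5, 4 and 4 matches, and the rows of GPI, TPI1 and PGAM1 are empty.

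The first question was which of these genes responded to acute hypoxia in cells with HIF1A. All 10 had more gene body reads in both WT hypoxia libraries than in either WT normoxia library. In the edgeR quasi-likelihood test, 7 of them rose at an FDR of 10% (GPI, ALDOA, ALDOC, PGK1, PGAM1, ENO2 and PKM), against 0.431% of the 16686 gene bodies tested. ENO1, GAPDH and TPI1 were higher but did not pass. When the replicate number was included as a block, all 10 rose, against 3.73% of gene bodies. The median log2 fold change of the 10 was 1.40, and that of all genes tested was -0.02. With 2 libraries a group, adjusted p-values measure the spread among these libraries only. The cells were measured in bulk, so fewer responding cells and a smaller response per cell cannot be told apart.

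The isomerase gene GPI showed the largest difference. Its gene body gave 213 and 157 CPM (replicates 1 and 2) at normal oxygen and 833 and 1003 in hypoxia in WT cells, against 232 and 140 at normal oxygen and 211 and 131 in hypoxia in HIF1A-/- cells. Values of the other genes follow in this order. Both WT hypoxia libraries stood far above the other 6, whose values overlapped. In WT cells GPI rose 4.96-fold (log2 2.31, SE 0.31, adjusted p = 0.0393).

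Both aldolase genes rose in WT cells. ALDOA gave 76.7 and 61.5 CPM at normal oxygen and 188 and 184 in hypoxia in WT cells, against 86.2 and 61.5 and then 91.5 and 73.7 in HIF1A-/- cells. ALDOC gave 6.14 and 5.63 CPM at normal oxygen and 19.8 and 20.6 in hypoxia in WT cells, against 7.75 and 5.98 and then 6.41 and 5.68 in HIF1A-/- cells. For both, the 2 WT hypoxia libraries lay close together and above all others. The log2 fold changes in WT cells were 1.43 (SE 0.20, adjusted p = 0.0459) for ALDOA and 1.78 (SE 0.22, adjusted p = 0.0314) for ALDOC.

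The triose isomerase TPI1 differed least. It gave 41.0 and 36.2 CPM at normal oxygen and 58.6 and 47.5 in hypoxia in WT cells, against 52.9 and 35.6 and then 46.3 and 34.8 in HIF1A-/- cells. The WT groups did not overlap, but the lower WT hypoxia library lay under the higher HIF1A-/- normoxia library. The log2 fold change in WT cells was 0.46 (SE 0.23, adjusted p = 0.897, or 0.0889 with the replicate block).

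Of the pair of enzymes that yield NADH and ATP, PGK1 showed the larger difference. GAPDH gave 131 and 123 CPM at normal oxygen and 223 and 250 in hypoxia in WT cells, against 134 and 99.7 and then 143 and 109 in HIF1A-/- cells. PGK1 gave 83.1 and 62.5 CPM at normal oxygen and 214 and 304 in hypoxia in WT cells, against 88.3 and 68.7 and then 64.7 and 51.4 in HIF1A-/- cells. The WT hypoxia libraries were the 2 highest of the 8 for both genes. PGK1 rose 3.55-fold (log2 1.83, SE 0.24, adjusted p = 0.0314), and the difference of 0.89 for GAPDH (SE 0.19) did not pass (adjusted p = 0.215, or 0.0191 with the replicate block).

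Among the enzymes of the last steps, PGAM1 gave 32.1 and 29.0 CPM at normal oxygen and 77.9 and 80.2 in hypoxia in WT cells, against 35.7 and 26.3 and then 28.8 and 25.4 in HIF1A-/- cells. It rose by 1.37 on the log2 scale (SE 0.18, adjusted p = 0.0314). ENO1, the enolase of most tissues, gave 356 and 358 CPM at normal oxygen and 756 and 980 in hypoxia in WT cells, against 362 and 259 and then 375 and 268 in HIF1A-/- cells. Its WT normoxia libraries were nearly equal while the WT hypoxia libraries were far apart, and the log2 fold change of 1.28 (SE 0.22) missed the threshold narrowly (adjusted p = 0.101, or 0.0165 with the replicate block). ENO2, the enolase known from neurons, gave 18.9 and 14.2 CPM at normal oxygen and 50.9 and 56.7 in hypoxia in WT cells, against 18.6 and 18.9 and then 18.2 and 17.8 in HIF1A-/- cells. It had the lowest adjusted p of the 10 genes in WT cells (log2 1.70, SE 0.18, adjusted p = 0.0170). PKM, whose transcripts encode the M1 and M2 forms of muscle and of proliferating cells, gave 384 and 338 CPM at normal oxygen and 678 and 672 in hypoxia in WT cells, against 408 and 376 and then 400 and 343 in HIF1A-/- cells. It rose by 0.90 (SE 0.13, adjusted p = 0.0496), and gene body reads do not separate its spliced forms.

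The number of calls in WT cells depended on each of its 4 libraries. It fell from 7 to 0 without WT normoxia replicate 1, WT normoxia replicate 2 or WT hypoxia replicate 2, and to 3 without WT hypoxia replicate 1. The median log2 fold change of the 10 genes stayed between 1.30 and 1.52 when each library was left out in turn.

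**Figure D2:**
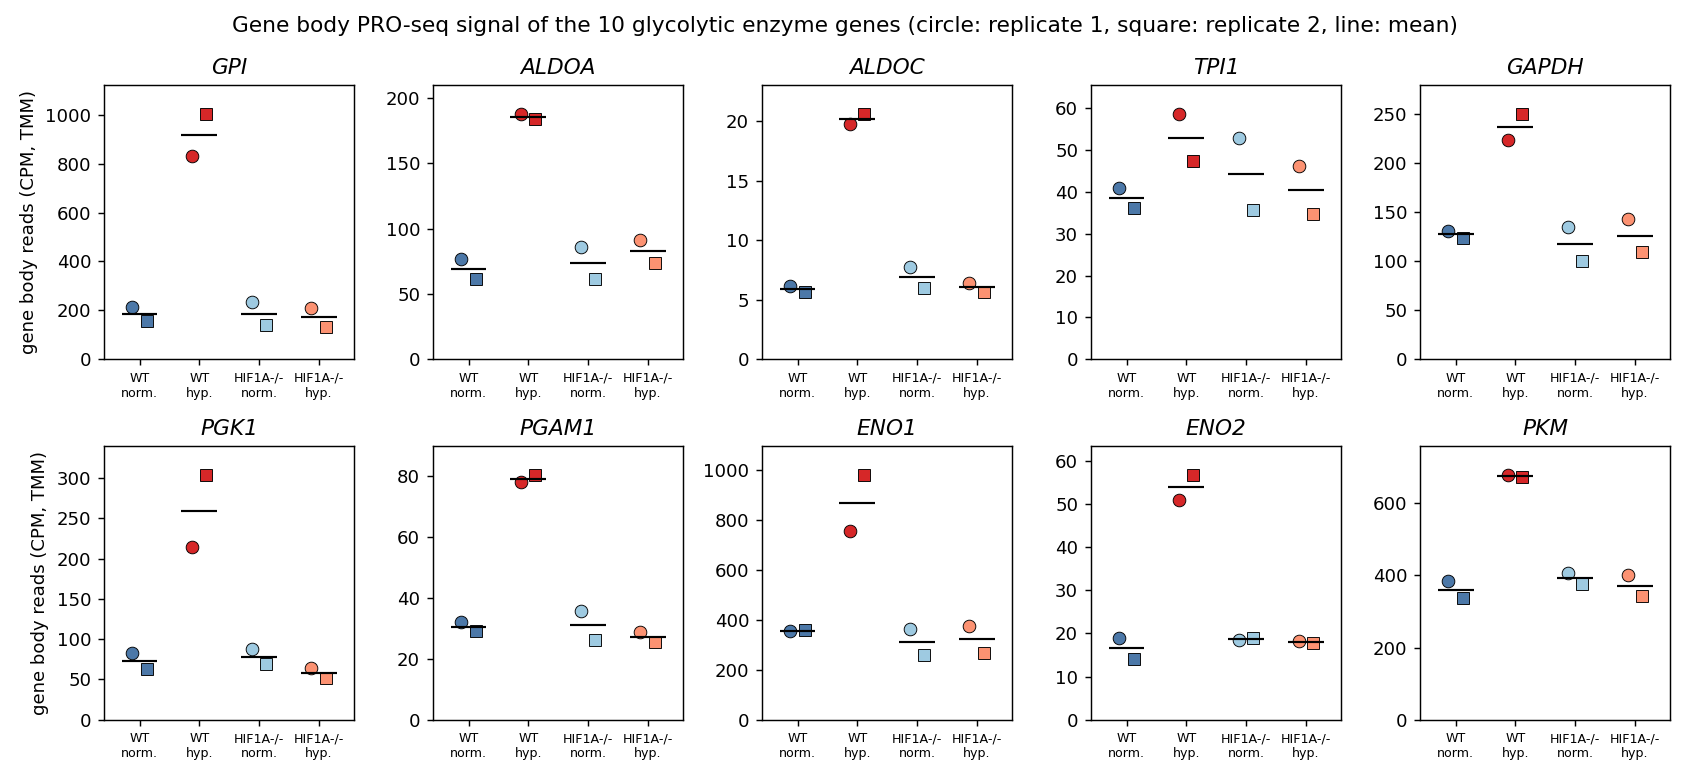
Gene body signal of the 10 genes in every library. Each panel is one gene with its own vertical axis in CPM from 0, circles are replicate 1, squares are replicate 2 and lines are the mean of the 2 libraries. In all 10 panels the WT hypoxia libraries lie above the WT normoxia libraries, and in TPI1 the WT hypoxia values overlap those of HIF1A-/- normoxia.

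In HIF1A-/- cells, hypoxia left these genes near their normoxia level. By edgeR none of the 10 passed, against 0% of all gene bodies, and none had an unadjusted p under 0.05. DESeq2 also called none of them. Log2 fold changes ran from -0.43 in PGK1 (SE 0.23) to 0.16 in ALDOA (SE 0.20), with 3 genes above 0 and 7 below, and a median of -0.10 over the 10 genes. PGK1 was 88.3 and 68.7 CPM in normoxia and 64.7 and 51.4 in hypoxia, so that the HIF1A-/- groups did not overlap, but the difference did not pass (adjusted p = 1).

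The difference between the genotypes in the response to hypoxia was tested as an interaction. All 10 values were above 0, meaning a larger change in WT cells, from 0.58 in TPI1 to 2.43 in GPI. None passed in the edgeR fit without a block, where 0.0539% of gene bodies did. An unadjusted p under 0.05 was seen for 9 of the 10, against 210 of the 16686 gene bodies in the same direction. With the replicate block 7 passed, against 0.384% of gene bodies. DESeq2 without a block called 8, against 68 of the 16686 gene bodies. The 7 were GPI, ALDOA, ALDOC, PGK1, PGAM1, ENO2 and PKM. ENO1, GAPDH and TPI1 did not pass in either edgeR fit. With the block they gave 1.24 (SE 0.27, adjusted p = 0.272), 0.79 (SE 0.20, 0.399) and 0.57 (SE 0.16, 0.588).

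**Figure D3:**
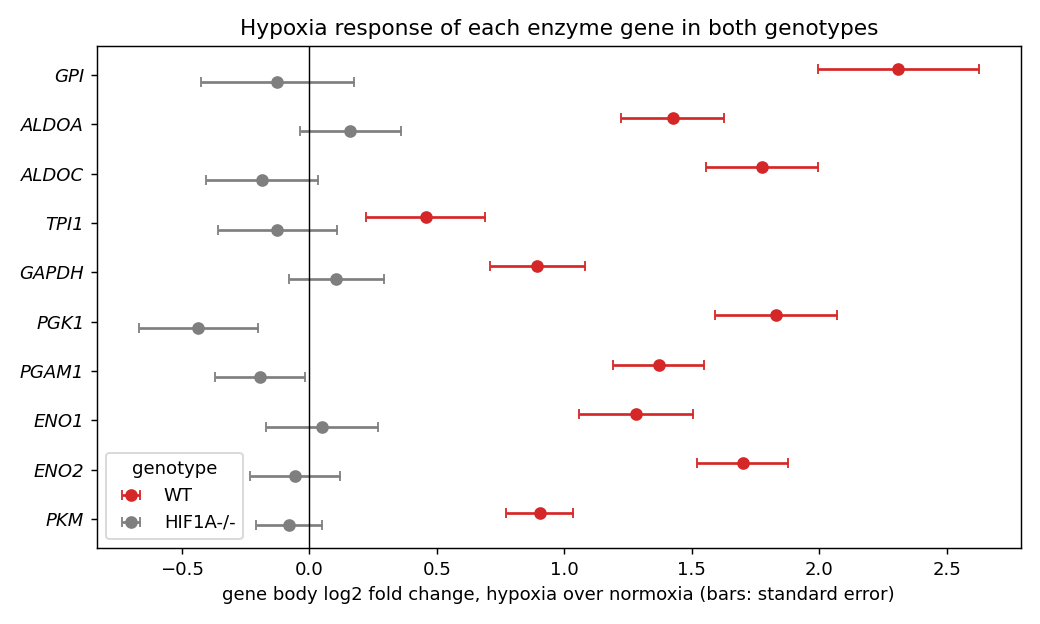
Gene body log2 fold change of each gene in hypoxia against normoxia, in WT cells (red) and in HIF1A-/- cells (grey). Points are edgeR estimates from 2 libraries a group and bars are standard errors. The WT points run from 0.46 in TPI1 to 2.31 in GPI, and the HIF1A-/- points from -0.43 in PGK1 to 0.16 in ALDOA.

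The lines were also set against each other at the same oxygen level. These comparisons share libraries with those above and add no independent evidence. In normoxia none of the 10 differed between HIF1A-/- and WT cells by edgeR, against 1.78% of gene bodies, with no unadjusted p under 0.05 and none called by DESeq2. The differences ran from -0.20 in ENO1 to 0.22 in ALDOC on the log2 scale. In hypoxia 9 were lower in HIF1A-/- cells, against 2.79% of gene bodies, and all 10 with the replicate block, against 15.1%. GPI was 5.38-fold lower (log2 -2.43, SE 0.32, adjusted p = 0.00906), PGK1 4.46-fold (adjusted p = 0.00475) and PKM, the least of the 9, 1.82-fold (adjusted p = 0.0175). TPI1 gave -0.39 (SE 0.23, adjusted p = 0.473, or 0.0457 with the block). Without WT hypoxia replicate 2, the 9 calls fell to 5.

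The TSS regions showed smaller differences than the gene bodies. In WT hypoxia 8 of 10 TSS counts were higher and 2 lower, with a median log2 fold change of 0.39, against -0.02 for all TSS regions. None passed in edgeR, against 0.046% of the 15212 TSS regions tested, and DESeq2 called none. An unadjusted p under 0.05 was seen for 5, against 371 of all TSS regions higher at that level. With the replicate block 4 passed, against 0.789%, namely ALDOA (adjusted p = 0.0540), PGK1 (0.0837), PGAM1 (0.0101) and ENO2 (0.0788). The TSS region of PGAM1 does not hold its MANE Select start.

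The TSS region of GPI gave 123 and 124 CPM in WT normoxia and 202 and 142 in WT hypoxia, a log2 fold change of 0.47 (SE 0.18). In PGAM1 the change of 1.24 (SE 0.37), from 25.3 and 19.1 to 55.0 and 50.4 CPM, was close to that of its gene body, and this is the gene whose TSS region lies furthest inside the MANE Select transcript. ENO1 went the other way, with 126 and 97.6 CPM in WT normoxia and 103 and 70.9 in WT hypoxia (-0.36, SE 0.20). These ENO1 groups overlapped. TPI1 gave 357 and 201 CPM in WT normoxia and 253 and 196 in WT hypoxia (-0.31, SE 0.22), and the value turned to 0.17 without WT normoxia replicate 1.

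In HIF1A-/- cells, TSS log2 fold changes ran from -0.39 in PGAM1 to 0.22 in ENO2, and the lowest adjusted p of the 10 was 1. The PGAM1 value turned to 0.41 without HIF1A-/- normoxia replicate 1 and was -0.95 without HIF1A-/- normoxia replicate 2. Between the lines in hypoxia, 9 of 10 TSS regions were lower in HIF1A-/- cells and none passed, against 0.664% of TSS regions. Of these, 4 had an unadjusted p under 0.05, against 961 of the 15212 TSS regions lower at that level. DESeq2 called 1, against 152 of all TSS regions lower. Including the block, 4 passed (GPI, PGK1, PGAM1 and PKM), against 6.97%. Here too the PGAM1 region lies downstream of its MANE Select start.

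**Figure D4:**
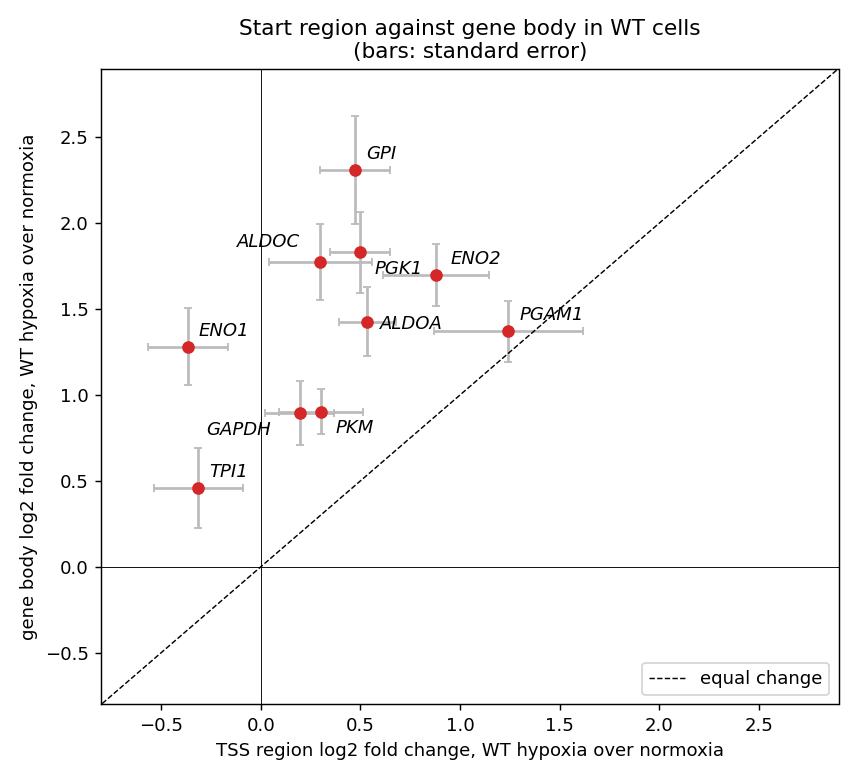
Log2 fold change of the TSS region (horizontal axis) against that of the gene body (vertical axis) in WT hypoxia over WT normoxia for the 10 genes. Points are edgeR estimates, bars are standard errors and the dashed line marks equal change. All 10 points lie above the line, PGAM1 nearest to it, and ENO1 and TPI1 lie left of 0.

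The pausing index compares both regions as the density of TSS reads over the density of gene body reads. Each density was taken as CPM from the total of its own table, so the index is relative and its absolute size has no meaning. The index was lower in WT hypoxia than in WT normoxia for all 10 genes, with a median log2 change of -0.91, against -0.05 for all 14494 genes tested. By edgeR 4 of them fell at an FDR of 10%, against 0.186% of genes, and 6 with the replicate block, against 0.6%. The median index over all genes ran from 44.4 to 49.1 in the 8 libraries. The median of the 10 genes was 21.4 and 19.4 in WT normoxia, 10.8 and 10.0 after hypoxia, and between 19.8 and 22.6 in the HIF1A-/- libraries.

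GPI had an index of 39.6 and 52.3 at normal oxygen and 16.01 and 8.94 in hypoxia in WT cells, against 32.0 and 52.8 and then 38.8 and 52.8 in HIF1A-/- cells, and fell by 1.92 on the log2 scale (SE 0.31, adjusted p = 0.0278). PGK1 had the highest index of the 10 in each library, with 79.3 and 122 at normal oxygen and 41.8 and 33.8 in hypoxia in WT cells, against 89.2 and 104 and then 103 and 114 in HIF1A-/- cells. ENO1 went from 11.4 and 8.50 in WT normoxia to 4.24 and 2.15 after hypoxia, and was 10.3 and 13.4 and then 9.50 and 10.8 in HIF1A-/- cells. The WT hypoxia libraries of these 3 genes were the lowest of the 8. PGK1 fell by 1.39 (SE 0.23, adjusted p = 0.0278) and ENO1 by 1.70 (SE 0.30, adjusted p = 0.0462).

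ALDOC was the remaining gene of the 4, going from 28.5 and 25.5 in WT normoxia to 8.47 and 10.05 in WT hypoxia, and was between 21.6 and 29.1 in the HIF1A-/- libraries. It fell by 1.54 (SE 0.30, adjusted p = 0.0775). ALDOA (-0.95) and GAPDH (-0.76) passed with the block only. PGAM1 changed least (-0.18, SE 0.31, adjusted p = 0.933), and its index and that of GAPDH do not include the MANE Select start. The TSS regions of ENO1 and PKM include it but lie mostly upstream, as their start sites are 406 and 434 bp before it. TPI1 was at 39.7 and 24.4 in WT normoxia and 19.05 and 17.4 in WT hypoxia, while its HIF1A-/- libraries, at 18.3 to 27.2, reached down to the WT hypoxia values.

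In HIF1A-/- cells, no index of the 10 genes passed, against 0% of all genes, with log2 changes from -0.21 in ENO1 to 0.24 in ENO2 and no unadjusted p under 0.05. The interaction was below 0 for all 10, down to -2.06 in GPI (SE 0.44). By edgeR none passed, against 0.0207% of genes, and 6 had an unadjusted p under 0.05. With the replicate block GPI and PGK1 passed, against 0.138%. The 4 calls in WT cells fell to 1 without WT normoxia replicate 1 and to 0 without WT normoxia replicate 2 or WT hypoxia replicate 2.

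Levels of different genes were compared as gene body CPM per kilobase (RPKM). In WT normoxia GAPDH was the highest at 46.9 ± 2.01 RPKM (mean ± SD, n = 2), followed by ENO1 at 20.9 ± 0.0818, ALDOA at 18.4 ± 2.86, TPI1 at 15.97 ± 1.41, PKM at 11.4 ± 1.04, PGAM1 at 6.41 ± 0.457, GPI at 5.10 ± 1.10, PGK1 at 3.36 ± 0.674, ALDOC at 2.09 ± 0.129 and ENO2 at 2.01 ± 0.407. The neighbours ALDOA and TPI1 overlapped in range, as did ALDOC and ENO2. In WT hypoxia GPI, at 25.3 ± 3.31 RPKM, followed GAPDH (87.1 ± 6.88), ENO1 (50.8 ± 9.24) and ALDOA (49.6 ± 0.740) in rank, and its range overlapped that of TPI1 (21.9 ± 3.26). ENO1 and ALDOA also overlapped there. In both HIF1A-/- groups GPI ranked 7 of 10, at 5.13 ± 1.80 RPKM in normoxia and 4.70 ± 1.56 in hypoxia.

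The isozyme pairs kept their order in every library. ALDOA was 9.39 and 8.22 times as dense as ALDOC at normal oxygen and 7.14 and 6.72 times in hypoxia in WT cells, against 8.37 and 7.73 and then 10.7 and 9.77 times in HIF1A-/- cells. ENO1 was 9.07 and 12.2 times as dense as ENO2 at normal oxygen and 7.16 and 8.33 times in hypoxia in WT cells, against 9.39 and 6.64 and then 9.93 and 7.24 times in HIF1A-/- cells. ALDOC and ENO2, the less transcribed of each pair, had a higher share of their pair in both WT hypoxia libraries than in either WT normoxia library. The log2 ratio of ALDOC to ALDOA was 0.34 higher in WT hypoxia and that of ENO2 to ENO1 0.44 higher, each with p = 0.333 in a two-sided exact permutation test, the smallest p that 2 against 2 libraries allow. In HIF1A-/- cells the ratios were lower in hypoxia, by -0.35 (exact permutation p = 0.333) and -0.10 (exact permutation p = 0.667). With a pseudocount of 1 RPKM the differences in WT cells shrank to 0.015 and 0.097. That pseudocount is large beside ALDOC and ENO2 at 1.72 to 2.30 RPKM in WT normoxia and lowers such differences by itself. The permutation test could not reach a p under 0.333, so whether either pair shifted cannot be decided here.

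**Figure D5:**
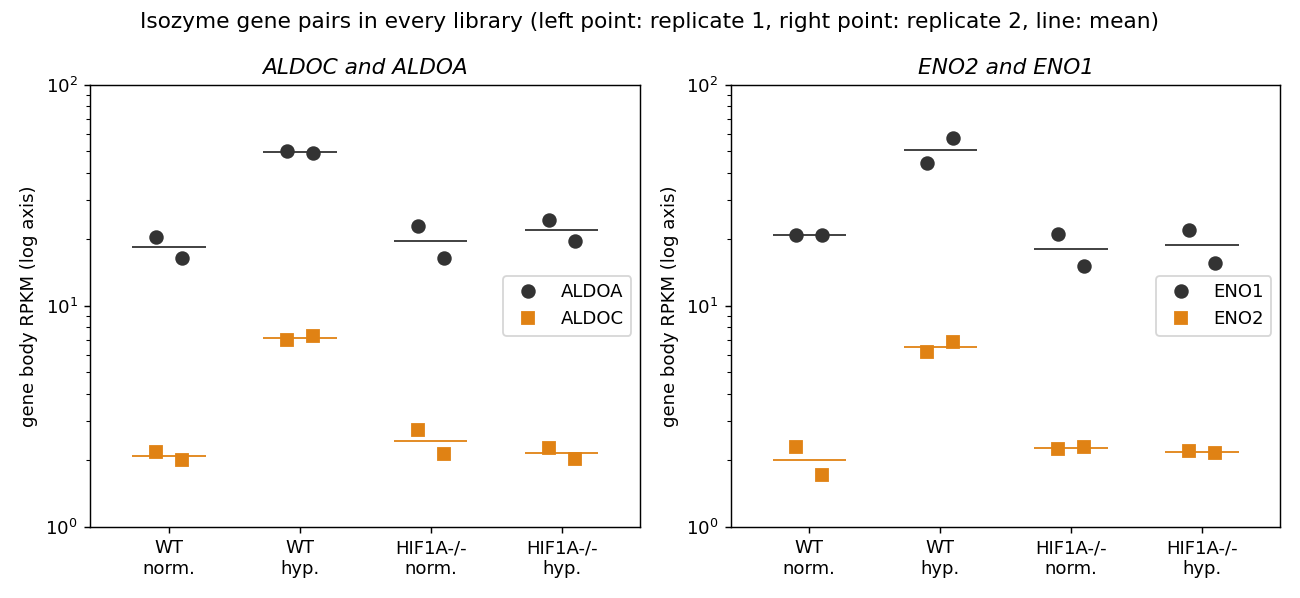
Gene body RPKM on a log axis of the aldolase genes ALDOA and ALDOC (left) and the enolase genes ENO1 and ENO2 (right) in every library. Points are the 2 libraries of each group and lines their mean. Both members of each pair are highest in the WT hypoxia libraries, and ALDOC and ENO2 stay between 1.72 and 7.30 RPKM, under their partners in all 8 libraries.

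The remaining enzymes around this pathway were counted by list. Of 11 genes, those of the first steps and of lactate formation with BPGM, 2 rose in WT hypoxia by edgeR and none fell. These were the hexokinase HK2 (log2 2.53, SE 0.36, adjusted p = 0.0459) and the lactate dehydrogenase LDHA (1.66, SE 0.16, adjusted p = 0.00761). Under the replicate block HK1 (0.81) and the phosphofructokinases PFKL (0.65) and PFKP (1.25) passed as well, making 5 of 11, where 3.73% of all gene bodies rose under the block. DESeq2 without a block called 4 of the 11, namely HK1, HK2, LDHA and PFKP. Over all gene bodies it called 174 of 16686 higher. HK2 had a mean of 109 ± 4.34 CPM in WT normoxia and 626 ± 121 in WT hypoxia (SD, n = 2), and LDHA 159 ± 4.62 and 503 ± 38.7. In HIF1A-/- cells none of the 11 passed in edgeR, none had an unadjusted p under 0.05 and DESeq2 called none.

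Isozyme genes of other tissues were mostly silent. Of GAPDHS, PGK2, PGAM2, PGAM4, ENO3 and PKLR, only PGAM2 and ENO3 had enough reads to be tested, and PGK2 and PGAM4 had no read in any library. No gene of this list, of the 5 tested genes of gluconeogenesis or of the 8 branch enzymes passed in WT hypoxia, with or without the replicate block. None of these had an unadjusted p under 0.05 in edgeR or was called by DESeq2. The median log2 fold change was -0.20 for gluconeogenesis and -0.19 for the branch enzymes, which draw on glycolytic intermediates, and 1 of the 8 branch enzymes was above 0. Against the background of 0.431%, the calls in these lists came to 2 of 26 genes tested.

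The nearest tested gene body on each side of the 10 genes was also examined, 20 genes in all. None passed in WT hypoxia by edgeR, against 0.431% of gene bodies, and DESeq2 called none. An unadjusted p under 0.05 was seen for 2, against 585 of the 16686 gene bodies higher at that level. Log2 fold changes of the 20 ran from -0.51 to 0.78 with a median of 0.01. Under the block 2 of the 20 rose, against 3.73% of gene bodies, namely ATP7A (0.77), which lies 53773 bp upstream of PGK1, and SLC2A7 (0.67), which lies 124207 bp upstream of ENO1.

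Gene body profiles over the 8 libraries were compared among the 10 genes. In 9 of them both WT hypoxia libraries were the highest of the 8, and TPI1 was the exception. GPI was the most like the mean of the others (Pearson r = 0.998 over 8 libraries, a description with no test), and TPI1 the least (0.73), followed by ENO2 (0.966) and ENO1 (0.971). The 5 genes outside the 10 with the most similar gene body profile were FUT11, a fucosyltransferase (r = 0.995), BNIP3, a mitophagy receptor (0.995), STC2, a secreted stanniocalcin (0.993), LDHA (0.992) and TPD52 (0.986). The median r over all tested genes was -0.01. The libraries of a group share their oxygen level and genotype, so these values mostly restate the contrast of WT hypoxia with the rest.

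Replicates differed in a common direction in 3 of the groups. Gene body CPM was higher in replicate 1 than in replicate 2 for 9 of the 10 genes in each normoxia group and all 10 in HIF1A-/- hypoxia, but for 3 of 10 in WT hypoxia. The source of these differences was not tested.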

How the data were processed

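PRO-seq libraries of WT and HIF1A-/- HCT116 cells were grouped from the sample labels. The authors deposited raw counts of reads per gene. Per the labels and the study's methods reads were trimmed (BBDUK, FASTQ-MCF), mapped by HISAT2 2.1.0 on GRCh37 without splicing, filtered on mapping quality (SAMtools 1.5) and counted by featureCounts (Subread 1.6.2), with 1 TSS region (551 bp) and 1 gene body per gene. Loss of multimapping reads can lower the counts of genes with pseudogenes.

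From these counts, genes above 0.5 CPM in at least 2 libraries entered the quasi-likelihood test of edgeR 4.0.16 (R 4.3.3) after TMM scaling, in a single fit of 4 group means over 8 libraries. P-values were adjusted by Benjamini-Hochberg over all genes tested, and those under an FDR of 10% were called. Both tables entered 1 edgeR fit of the pausing index, with a term for each library. The fits recovered known changes of 2-fold and more in simulated counts drawn without a replicate effect. Smaller changes and paired replicates were not simulated. Alternatives were the replicate block, DESeq2 1.42.0, library totals without TMM, no filter, a pseudocount for isozyme ratios and leaving out each library.

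Deviations from the group mean were correlated between same-numbered libraries in each of 6 group pairs (r = 0.484 to 0.790 across gene bodies, 0.216 to 0.519 across TSS regions). From these values alone the numbers were taken to pair the samples. Among the 10 genes, replicate 1 was higher for 3 in WT hypoxia, against 9 or 10 in the other groups. The methods name no block, so the fit without it is the main one.

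All 10 genes were named. In other lists the genes called were named, with those most alike in profile by a fixed rank. The genes and lists were chosen with earlier results of these data known. Reads carry no molecular identifiers, so copies made by PCR cannot be told apart.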

Additional observations from a re-analysis of the deposited data

Results flagged for a closer look

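With the replicate block in the edgeR fit, the response to hypoxia differed between the genotypes in 7 of the 10 gene bodies. The share over all gene bodies tested was 0.384%. The log2 difference of the responses, WT minus HIF1A-/-, was 2.48 for GPI (adjusted p = 0.0184), 1.27 for ALDOA (0.0205), 1.96 for ALDOC (0.0202), 2.29 for PGK1 (0.0205), 1.56 for PGAM1 (0.0168), 1.76 for ENO2 (0.0171) and 0.99 for PKM (0.0184). These genes stand here because an effect under the same contrast differed between 2 groups by a test of the difference itself. In the edgeR fit without the block and with the filter on low counts none of them passed, against 9 of 16686 gene bodies. DESeq2 without a block called 8 of the 10 genes, against 68 of 16686. EdgeR with no filter called 2, against 17 of 21202.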

How the results depend on the processing

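The tests rest on 2 libraries a group, and the lowest gene body count of the 10 genes was 102 reads, in ALDOC. The count of genes called in WT gene bodies was between 8 and 10 under the other settings and 0 to 9 when each library was left out in turn. The interaction in gene bodies, with no calls in the main setting, gave 7 with the replicate block, 2 with no filter, 8 with DESeq2, 9 with DESeq2 and the replicate block, and 0 to 1 with a library left out. The 9 calls between the lines in hypoxia ranged from 5 to 9 with a library left out. Counts over all genes also moved with the setting. For the gene body interaction they were 9 in the main setting, 64 with the replicate block and 17 with no filter. DESeq2 gave 68, and 122 with the block. TSS regions called lower between the lines in hypoxia came to 1060 with the block, 476 with no filter and 526 with DESeq2 and the block. Those called higher in WT hypoxia came to 120, 49 and 55. For TSS regions of the 10 genes in WT cells the count was 4 with the replicate block, 1 with no filter and 2 with DESeq2 and the replicate block. Between the lines in hypoxia it was 4, 3 and 3 under these settings, 1 with DESeq2 alone, and 0 to 2 with a library left out, and in normoxia 0 to 1. For the pausing index, the count in WT cells was 0 to 5 with a library left out, and that of the interaction was 3 with no filter and 2 with the replicate block. With a pseudocount the isozyme differences in WT cells were 0.015 and 0.097. With a library left out, the TSS value of TPI1 in WT cells ran from -0.67 to 0.17, that of GAPDH between the lines in hypoxia from -0.28 to 0.061, and the pausing interaction of PGAM1 from -0.55 to 0.46, so each changed sign. In HIF1A-/- cells, where no value passed, the sign also turned for 8 of 10 gene body, 4 of 10 TSS and 6 of 10 pausing values, PGAM1 running from -0.95 to 0.41 in its TSS region, and in normoxia between the lines for 8 gene body and 6 TSS values, and for 3 of the 10 TSS interactions. Beyond the counts given here and in the report, the replicate block changed no other count of these genes. Causes of these changes were not tested.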
